A study of Mus musculus with 6 samples.

Results

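The variable (V) segments of the T cell receptor were followed in mouse CD8+ T cells that carry the OT-I receptor. They were chosen as the gene rows whose symbol starts with Trav, Trbv, Trdv or Trgv, the older spelling Tcrg-V included, and came to 176 of the 55414 genes in the table. The alpha locus on chromosome 14 gave 128 of them, the beta locus on chromosome 6 gave 35, the gamma locus on chromosome 13 gave 7, and 6 delta segments lie within the alpha locus. The annotation calls 34 of the 176 pseudogenes, and 14 stood at 0 counts in all libraries.

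The 3 groups compared held 2 libraries each. N4 cells were taken 4 days after stimulation with N4, the fragment of ovalbumin that the OT-I receptor recognises, given with antibodies to the costimulatory receptors OX40 and 4-1BB. T4 cells were taken 4 days after T4, a variant of that peptide with lower potency for the same receptor, with the same antibodies. Naive cells are labelled with no peptide and no antibody. All groups share the OT-I genotype and the label of CD8+ T cells from spleen and lymph nodes, although the design text names only spleens for stimulated cells. The labels used here give neither the recombinase genotype of the mice, nor their age, nor whether the libraries of a group came from separate mice, so p-values measure only the spread between libraries, which may be technical.

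A developing T cell joins 1 V segment to a joining (J) segment, with a diversity segment between them in beta and delta chains, and transcripts of the joined exon run on into the constant (C) region. The V segment encodes most of the part of the chain that meets peptide and MHC. An OT-I mouse carries an already joined alpha gene (V alpha 2, Trav14 with Traj33) and an already joined beta gene (V beta 5, Trbv12-1 with Trbj2-7) as transgenes. A joined beta chain usually blocks joining at the other beta allele, whereas alpha genes are known to go on joining in the thymus, so cells of such mice can carry a further alpha chain. Counts do not tell transgene RNA from RNA of the mouse's own loci.

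The Trav14 family has near-identical copies, so its rows cannot be read one by one. A 90-base stretch of the V exon is shown for those members that took most of the Trav14 counts, 5′ to 3′ on the plus strand in GRCm38, with the bases that differ from Trav14n-1 in capitals. The sequences come from the GENCODE M21 transcripts, and the stretch starts at base 81 of the exon.
Trav14n-1, chr14:53166947-53167036: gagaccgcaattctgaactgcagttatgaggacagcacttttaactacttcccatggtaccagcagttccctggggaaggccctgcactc
Trav14d-1, chr14:52855935-52856024: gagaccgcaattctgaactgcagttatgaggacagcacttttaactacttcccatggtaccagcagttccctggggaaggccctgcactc
Trav14-1, chr14:53554327-53554416: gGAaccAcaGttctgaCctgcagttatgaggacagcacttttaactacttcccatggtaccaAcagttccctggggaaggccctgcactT
Trav14n-2, chr14:53259948-53260037: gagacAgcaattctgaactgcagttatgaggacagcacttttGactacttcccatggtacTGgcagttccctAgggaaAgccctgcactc
Trav14n-1 and Trav14d-1 had the same 312 bases over the whole V exon, as had Trav14n-2 and Trav14d-2, while Trav14-1 differed from Trav14n-1 at 13 of 312 bases and Trav14n-2 at 10.

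The beta segment of OT-I has a neighbour in the same family. The same display for Trbv12-1 and Trbv12-2, from base 95 of their V exons, marks in capitals the bases at which Trbv12-2 differs from Trbv12-1.
Trbv12-1, chr6:41113869-41113958: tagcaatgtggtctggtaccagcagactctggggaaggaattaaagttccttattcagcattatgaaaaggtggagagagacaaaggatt
Trbv12-2, chr6:41119166-41119255: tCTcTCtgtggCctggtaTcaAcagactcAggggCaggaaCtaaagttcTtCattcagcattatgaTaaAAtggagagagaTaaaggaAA
Over 293 bases the V exons differed at 32, an identity of 89.1%, so their reads are easier to place than those of the Trav14 copies.

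The libraries held between 269033066 and 335968843 estimated counts, and V segments took 0.0550% and 0.0478% of them in N4 libraries, 0.112% and 0.111% in T4 libraries and 0.180% and 0.263% in naive libraries. All 10 CD8 T cell markers were above 0 in every library, with summed levels from 3382 to 4919 CPM (counts scaled to library size with TMM factors), and Cd4 had at most 27 counts. Cd3d was the largest part of each CD8 sum, and its members did not move alike. Cd8a, Cd8b1, Cd2 and Cd3e were lowest in N4, whereas Cd3d, Cd3g and Thy1 were lowest in T4. For Cd247, Cd5 and Lck, N4 overlapped naive. Among these markers only Cd2 passed the threshold in N4 against naive, falling by 1.59 on the log2 scale (SE 0.38, edgeR adjusted p = 0.0472). Markers of other cells moved with the groups, most of them lowest in N4. The 8 neutrophil markers summed to 48.0 and 39.3 CPM in N4 libraries, 10.9 and 3.96 in T4 libraries and 2470 and 25540 in naive libraries. The 11 macrophage and monocyte markers summed to 22.1 and 19.0 CPM in N4 libraries, 271 and 258 in T4 libraries and 2364 and 2699 in naive libraries. Most of the T4 sum was Lyz2, at 243 and 230 CPM. In T4, Lyz2, Csf1r and Cd68 lay between N4 and naive. C1qa, C1qb and C1qc stayed at or under 1.42 CPM in N4 and T4 libraries, against 75.9 CPM or more in naive libraries. Hmox1 was higher in both N4 libraries than in both T4 libraries. The 7 B cell markers summed to 47.6 and 31.9, 166 and 143, and 222 and 149 CPM in N4, T4 and naive libraries, with Pax5 at 0 in N4. The 5 red cell markers summed to 323 and 275 CPM in N4 libraries, 4750 and 5930 in T4 libraries and 2539 and 6765 in naive libraries, with Alas2 at 0 in N4. The 5 natural killer markers summed to 11.2 and 12.7 CPM in N4 libraries, 50.8 and 49.2 in T4 libraries and 89.4 and 119 in naive libraries. Most of their N4 sum was Eomes, which was highest in T4 and overlapped between N4 and naive. The other natural killer markers were lowest in N4 and highest in naive. The 6 markers of invariant NKT and MAIT cells summed to 3.90 and 5.11 CPM in N4 libraries, 16.5 and 14.7 in T4 libraries and 41.9 and 157 in naive libraries. They include Traj33, also the OT-I alpha joining segment, which was most of the sum in naive library 2. Klrb1c, also a natural killer marker, was most of it in naive library 1. Traj18 was higher in N4, at 1.08 and 1.32 CPM, than in naive, at 0.451 and 0.793 CPM, and Trav1 was at 0 in naive libraries alone. The 6 CD4 T cell markers summed to 44.6 and 57.0, 11.4 and 11.2, and 14.4 and 12.4 CPM in N4, T4 and naive libraries. Most of their N4 sum was Cd200, and Tnfrsf4 was also highest in N4. Cd4 itself was at 0 in both N4 libraries, and Zbtb7b, Foxp3 and Cd40lg overlapped between N4 and naive. Naive library 2 stood apart from naive library 1 in the neutrophil markers and in Trav14. The part of these other cells in the V segment values was not tested.

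Trav14 held the largest part of the alpha V counts in every library, but its share differed between the groups. It took 58.4% and 51.5% of alpha V counts in the N4 libraries, 76.4% and 78.1% in the T4 libraries, and 85.1% and 98.2% in the naive libraries. The exact 95% binomial intervals, which cover counting error only, run from 57.6 to 59.2% and 50.8 to 52.3% in N4 libraries, from 76.0 to 76.8% and 77.8 to 78.5% in T4 libraries and from 84.9 to 85.4% and 98.2 to 98.3% in naive libraries. N4 was lowest, T4 lay between, and no library of any group reached into another group.

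In means, Trav14 took 54.9% ± 4.85 of alpha V counts in N4 cells, 77.2% ± 1.23 in T4 cells and 91.7% ± 9.26 in naive cells (SD, n = 2 each). The difference was -36.7 percentage points for N4 against naive (combined SD 10.5), -14.4 points for T4 against naive (combined SD 9.34) and -22.3 points for N4 against T4 (combined SD 5.003). Without naive library 2 the differences from naive were -30.2 points for N4 and -7.89 points for T4. With 2 libraries against 2, an exact two-sided permutation test cannot go below p = 0.33, and each of these comparisons gave that value.

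Trbv12-1 held nearly all beta V counts in every library. Its share was 97.2% and 97.0% in the N4 libraries, 97.5% and 97.4% in the T4 libraries, and 99.1% and 99.5% in the naive libraries. Both stimulated groups lay below both naive libraries, and N4 lay just below T4. The differences were -2.20 points for N4 against naive (combined SD 0.288), -1.86 points for T4 against naive (combined SD 0.267) and -0.34 points for N4 against T4 (combined SD 0.148). Each difference between groups was thus larger than its spread, with the same permutation p of 0.33. All other beta segments together took 2.79% and 2.97% in N4 libraries, 2.49% and 2.59% in T4 libraries and 0.863% and 0.499% in naive libraries.

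**Figure D1:**
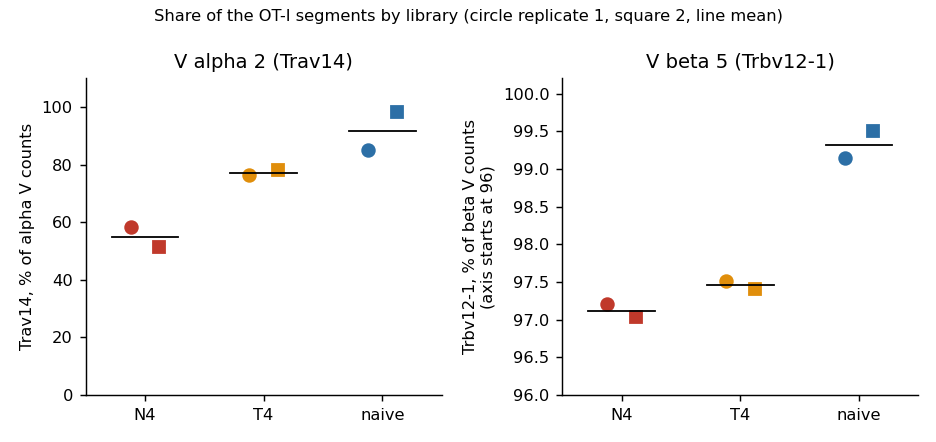
Share of the OT-I V segments in each library: Trav14 as a percentage of alpha V counts on the left and Trbv12-1 as a percentage of beta V counts on the right, where the axis starts at 96. Circles are replicate 1, squares replicate 2, and lines are group means; Trav14 goes from 51.5% in an N4 library to 98.2% in a naive one, and Trbv12-1 stays above 97% throughout.

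The levels behind these shares were taken for the OT-I segments and for the other segments of each locus. Summed Trav14 stood at 38.3 and 43.6 CPM in N4 libraries, 89.9 and 103 CPM in T4 libraries and 167 and 1540 CPM in naive libraries. N4 was below T4 and T4 below naive without overlap, under each of the 3 scalings tried, and the naive libraries were far apart. In bulk RNA, fewer cells of a type and less RNA per cell cannot be told apart. Alpha segments outside Trav14 summed to 27.3 and 41.0 CPM in N4 libraries, 27.8 and 29.0 CPM in T4 libraries and 29.1 and 27.7 CPM in naive libraries, so the groups overlapped. Scaling by library totals alone moved the median log2 fold change of all tested genes to -0.65 for N4 against naive, 0.30 for T4 against naive and -1.05 for N4 against T4, where it was -0.09, 0.00 and -0.20 with TMM. On that scale the same sum was 22.4 and 26.3 CPM in N4 libraries, 37.8 and 37.2 in T4 libraries and 38.0 and 23.1 in naive libraries. The shares do not depend on the scaling.

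Trbv12-1 stood at 526 and 557 CPM in N4 libraries, 645 and 663 CPM in T4 libraries and 1104 and 1481 CPM in naive libraries. The groups did not overlap, in the order N4, T4, naive, and naive library 2 was less far from its partner than for Trav14. Beta segments outside Trbv12-1 went the other way. They summed to 15.1 and 17.0 CPM in N4 libraries, 16.4 and 17.6 CPM in T4 libraries and 9.61 and 7.42 CPM in naive libraries. Both stimulated groups lay above naive, a mean of 16.05 ± 1.40 CPM in N4 and 17.0 ± 0.813 in T4 against 8.52 ± 1.55 in naive cells (SD, n = 2 each). Under scaling by library totals N4 overlapped naive, with 12.4 and 10.9 CPM in N4 against 12.6 and 6.18 CPM in naive libraries.

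**Figure D2:**
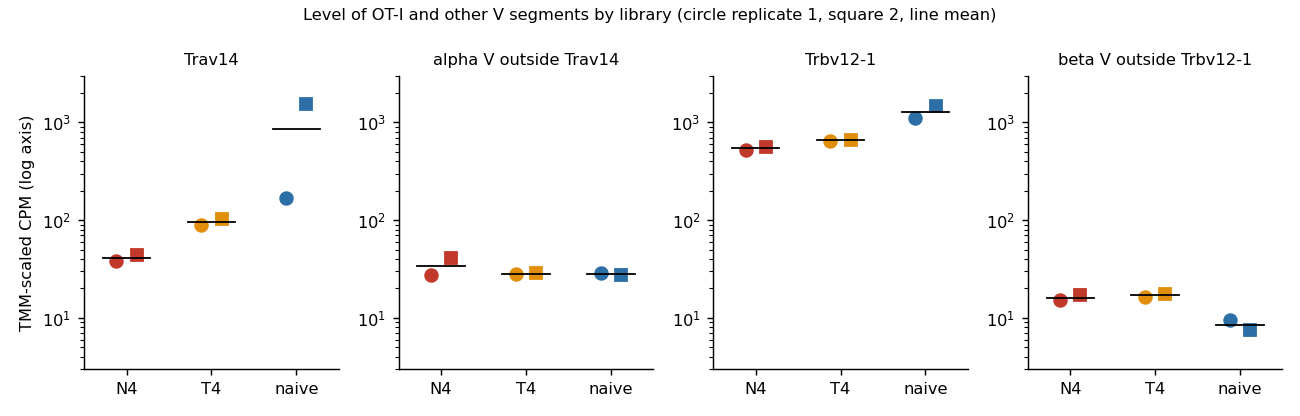
Level in each library, in TMM-scaled CPM on a log axis, of Trav14, of alpha V segments outside it, of Trbv12-1 and of beta V segments outside it. Circles are replicate 1, squares replicate 2, and lines are group means; both OT-I segments are lowest in N4 and highest in naive cells, the alpha remainder overlaps between groups, and the beta remainder is highest in N4 and T4.

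Within the Trav14 family the twin copies Trav14d-1 and Trav14n-1 together took 88.3% and 89.8% of the counts in N4 libraries, 92.4% and 94.4% in T4 libraries and 87.2% and 96.8% in naive libraries. Their counts were split evenly, with Trav14d-1 at 50.0% of the pair in each library. The other identical pair, Trav14d-2 and Trav14n-2, followed the twins at 1.52 and 2.02 counts per 100 twin counts in N4 libraries, 2.01 and 1.77 in T4 libraries and 2.74 and 2.20 in naive libraries. Trav14-1 did not keep such a ratio. It had 2.73 and 3.29 counts per 100 twin counts in N4 libraries, 1.94 and 1.46 in T4 libraries and 8.48 and 0.633 in naive libraries. In level, Trav14-1 stood at 0.924 and 1.29 CPM in N4 libraries, 1.61 and 1.42 CPM in T4 libraries and 12.3 and 9.43 CPM in naive libraries, so its naive libraries were close together where those of the twins were not. Trav14-2 and Trav14d-3-dv8 were also lower in N4 and T4 than in naive, without overlap, whereas Trav14-3 and Trav14n-3 overlapped between N4 and naive.

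Of the 176 V segments, 144 passed the filter on low counts and were tested: 106 alpha, 25 beta, all 7 gamma and all 6 delta segments. A segment that is high in 1 group can pass through that group alone, so counts over those that passed are descriptions. In N4 against naive, edgeR's quasi-likelihood test with Benjamini-Hochberg adjustment called 15 of the 144 (10.4%), 8 higher and 7 lower, where it called 12.1% of all 23003 genes tested, 4.87% higher and 7.18% lower. Unadjusted p-values under 0.05 were found for 31 V segments, a share of 21.5%, where 30.8% of all genes passed, and DESeq2 called 27, a share of 18.8%, where it called 27.2% of all genes. By each of these measures the share of V segments was below that of all tested genes, and by edgeR's adjusted p the shares were close. Among the 8 higher, Trav2 and 5 beta segments were at 0 in both naive libraries. By locus, the calls were 6 of 106 alpha segments (1 higher, 5 lower), 8 of 25 beta segments (7 higher, 1 lower), 1 of 7 gamma segments (lower) and 0 of 6 delta segments. No delta segment had an unadjusted p under 0.05.

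The alpha segments called lower in N4 were all of the Trav14 family. Without a test, 21 of the 106 were lower in both N4 libraries than in both naive ones (19.8%, where 28.9% of all tested genes were). Another 28 were higher (26.4%, where 26.5% of all tested genes were). Trav14-1 fell by 3.30 on the log2 scale (SE 0.36, edgeR adjusted p = 0.00938). Trav14n-1 and its twin Trav14d-1 each fell by 4.49 (SE 1.05, edgeR adjusted p = 0.0457). The mean level of Trav14n-1 was 18.2 ± 1.88 CPM in N4 against 409 ± 476 CPM in naive cells (SD, n = 2 each). Trav14d-2 and Trav14n-2 fell by 4.81 and 4.82 (edgeR adjusted p = 0.0368 and 0.0378). Because these copies share reads, the 5 calls are not 5 separate observations. Without naive library 2 the changes were smaller, -2.002 for Trav14n-1 and -2.62 and -2.61 for Trav14d-2 and Trav14n-2, and the calls stood. The calls of the twins were lost when any 1 of the N4 or T4 libraries was left out (adjusted p up to 0.179), those of Trav14d-2 and Trav14n-2 without either N4 library or T4 library 2 (up to 0.139 and 0.140), and that of Trav14-1 was kept throughout (up to 0.0375).

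Trbv12-1 was the beta segment called lower, by 1.26 on the log2 scale in N4 against naive (SE 0.26, edgeR adjusted p = 0.0352). It was lower in both N4 libraries than in both naive ones. The adjusted p of Trbv12-1 ran from 2.62e-05 to 0.155 over the alternatives, and the call was lost when either N4 library or either T4 library was left out. In T4 against naive its change was -0.98 (SE 0.26, edgeR adjusted p = 0.186), past the threshold without naive library 1 (-1.27, adjusted p = 0.0370), and in N4 against T4 it was -0.27 (SE 0.26, edgeR adjusted p = 0.537). Under scaling by library totals the N4 against T4 difference was -1.13 and passed the threshold (adjusted p = 0.0224).

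T4 against naive gave 0 calls among the 144 V segments by edgeR's adjusted p, where 0.117% of all tested genes were called, 0.0826% higher and 0.0348% lower. With naive library 1 or 2 left out it gave 7 and 6 calls. Unadjusted p-values under 0.05 were found for 28 (19.4%), where 14.5% of all genes passed, and DESeq2 called 21 (14.6%), where it called 8.67% of all genes. For Trav14-1 the change was -2.84 (SE 0.35, edgeR adjusted p = 0.0623), and it passed the threshold without naive library 1 (adjusted p = 0.0387) or naive library 2 (0.0369). For Trav14n-1 the change was -3.18 (SE 0.99, edgeR adjusted p = 0.232), but -0.69 without naive library 2 (adjusted p = 0.265) and -4.135 without naive library 1, where it passed (adjusted p = 0.00474). N4 against T4 gave 1 call, the delta segment described below, where 7.96% of all tested genes were called, 3.48% higher and 4.47% lower. In that comparison 10 V segments (6.94%) had an unadjusted p under 0.05, where 29.2% of all genes had, and DESeq2 called 8 (5.56%), where it called 25.1% of all genes. Both comparisons with naive share the naive libraries.

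The V counts were also set against the constant regions that the same chains carry. These are ratios of counts, not per length, and are read across libraries only. Alpha V segments had 4.72 and 4.59 counts per 100 Trac counts in N4 libraries, 13.9 and 13.8 in T4 libraries and 16.3 and 55.3 in naive libraries. Beta V segments had 8.36 and 7.56 counts per 100 counts of Trbc1 and Trbc2 in N4 libraries, 16.3 and 15.7 in T4 libraries and 21.5 and 22.2 in naive libraries. For both chains N4 was lowest, T4 lay between and naive was highest, without overlap. The beta ratio averaged 7.96 ± 0.565 in N4 cells, 15.99 ± 0.415 in T4 cells and 21.9 ± 0.535 in naive cells (SD, n = 2 each).

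The alpha and beta constant regions themselves passed the threshold in no comparison. Trac, the alpha constant region, stood at 1389 and 1844 CPM in N4 libraries, 844 and 956 CPM in T4 libraries and 1199 and 2834 CPM in naive libraries, a log2 change of -0.32 in N4 against naive (SE 0.44, edgeR adjusted p = 0.673). Trbc2, a beta constant region, stood at 4657 and 5466 CPM in N4 libraries, 2958 and 3183 CPM in T4 libraries and 3935 and 5274 CPM in naive libraries. In N4 against naive its change was 0.14 (SE 0.29, edgeR adjusted p = 0.791) and that of Trbc1 was 0.56 (SE 0.25, edgeR adjusted p = 0.195). N4 cells thus had fewer V counts beside constant region levels for which no difference from naive passed the test. Length classes were taken over genes with a mean of at least 8 CPM, a level that segments such as Trav21-dv12 did not reach. Across 472 such genes with transcripts under 1000 bases, the length class of the V segments as annotated, the median log2 change was 0.55 in N4 against naive, -0.27 in T4 against naive and 0.86 in N4 against T4. Transcripts of joined genes run on into the C region and are longer than the annotated segments. Across 1350 genes from 1000 to under 2000 bases the medians were -0.26, 0.01 and -0.36. For N4 against naive the median was -0.01 from 2000 to under 4000 bases and 0.14 from 4000 bases on. The part of transcript length in the V to C ratios was not tested.

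**Figure D3:**
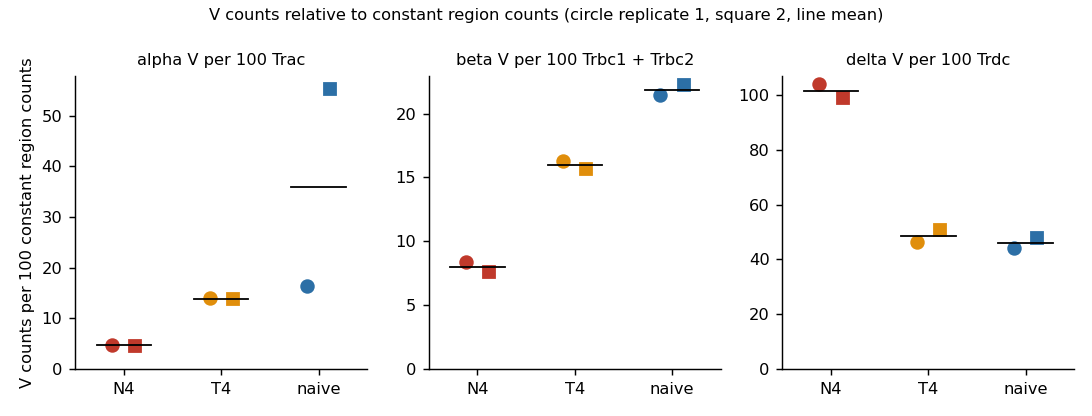
V segment counts per 100 constant region counts in each library for the alpha, beta and delta chains; each panel has its own axis from 0, circles are replicate 1, squares replicate 2, and lines are group means. Alpha and beta ratios are lowest in N4, at 4.59 to 4.72 and 7.56 to 8.36, while the delta ratio is highest there, at 98.8 to 104.

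The alpha and beta OT-I segments did not keep one ratio to each other. Trav14 had 7.28 and 7.83 counts per 100 Trbv12-1 counts in N4 libraries, 13.9 and 15.6 in T4 libraries and 15.1 and 104 in naive libraries. N4 lay below T4 without overlap, T4 overlapped naive, and naive library 2 stood far above all others.

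The joining segments of the OT-I chains gave a second reading of the same chains. Traj33, which follows Trav14 in the OT-I alpha gene, and Trbj2-7, which follows Trbv12-1 in the beta gene, are shown as annotated on the plus strand in GRCm38 from GENCODE M21.
Traj33, chr14:54185358-54185414: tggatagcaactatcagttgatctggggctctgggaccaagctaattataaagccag
Trbj2-7, chr6:41543810-41543856: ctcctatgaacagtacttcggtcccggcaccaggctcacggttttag
Traj33 took 2.88% and 2.52% of alpha joining segment counts in N4 libraries, 10.5% and 9.35% in T4 libraries and 13.5% and 69.5% in naive libraries. It thus followed the order of Trav14, and kept 4.65 and 4.34 counts per 100 Trav14 counts in N4 libraries, 4.70 and 3.94 in T4 libraries and 4.56 and 6.71 in naive libraries. Naive library 2, which was highest in Trav14, was also highest in Traj33, so the difference between the naive libraries is present in both segments of the chain.

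Trbj2-7 took 26.5% and 25.3% of beta joining segment counts in N4 libraries, 37.8% and 37.5% in T4 libraries and 46.8% and 55.0% in naive libraries. It had 10.9 and 11.7 counts per 100 Trbv12-1 counts in N4 libraries, 9.10 and 9.16 in T4 libraries and 9.14 and 9.33 in naive libraries. Other joining segments held much of the rest. Traj49, another alpha joining segment, took 34.5% and 36.3% in N4 libraries, 25.7% and 28.0% in T4 libraries and 43.6% and 13.2% in naive libraries. Traj27 took 6.26% and 7.41%, 12.5% and 12.05%, and 5.55% and 2.38% in N4, T4 and naive libraries. Trbj2-1, a beta joining segment upstream of Trbj2-7, took 38.4% and 38.6% in N4 libraries, 27.4% and 27.6% in T4 libraries and 19.3% and 19.5% in naive libraries, and Trbj1-1 took 7.41 to 12.9% over the 6 libraries. Traj49 thus had more counts than Traj33 in every library but naive library 2, and Trbj2-1 had more than Trbj2-7 in the N4 libraries.

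Outside Trbv12-1, more beta segments were seen in stimulated cells than in naive cells. Of the 35 beta segments, 24 and 21 were above 0 in N4 libraries, 30 and 28 in T4 libraries and 12 and 17 in naive libraries, and 23 and 20, 25 and 24, and 10 and 14 had at least 10 counts. The effective number of beta segments outside Trbv12-1 (the exponential of the Shannon entropy of their shares) was 15.1 and 12.5 in N4 libraries, 13.98 and 13.6 in T4 libraries and 3.94 and 6.15 in naive libraries. The counts behind these numbers were small, 3326 and 3488 in N4 libraries, 6642 and 6815 in T4 libraries and 4219 and 1854 in naive libraries. Naive library 1 had more such counts than either N4 library and showed fewer segments, although 2450 of its counts were of Trbv20 alone.

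Among the 25 tested beta segments, 13 were higher in both N4 libraries than in both naive ones (52.0%, where 26.5% of all tested genes were) and 1 was lower (28.9% of all tested genes were). In T4 against naive 19 were higher without overlap (76.0%, where 26.2% of all tested genes were) and 2 were lower (22.6% of all tested genes were). Their median log2 change was 1.64 in N4 against naive and 2.53 in T4 against naive, where the medians of all tested genes were -0.09 and 0.00. Of the 25, 5 stood at 0 in both naive libraries and above 0 in all 4 stimulated ones, a pattern seen in 0.735% of all tested genes. These 5 passed the filter only through the stimulated groups, as did Trbv13-1. The shares without overlap, the count and the medians all include such rows and are therefore no support for a difference.

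The 5 segments at 0 in naive cells were Trbv13-3, Trbv14, Trbv16, Trbv4 and Trbv5. edgeR's adjusted p called each in N4 against naive, but as these rows entered the test only through N4 and T4, the calls are given as a description of the counts. Trbv14 had 210 and 172 counts in N4 libraries, 349 and 162 in T4 libraries and 0 and 0 in naive libraries. Against a floor of 3 counts in each naive library its mean CPM in N4 was at least 95.1-fold higher. Trbv16 had 205 and 76 counts in N4 libraries, 362 and 451 in T4 libraries and 0 and 0 in naive libraries, at least 69.0-fold higher in N4. For Trbv13-3, Trbv4 and Trbv5 the N4 levels were at least 64.2-fold, 52.0-fold and 36.4-fold higher. The call of Trbv5 was lost without naive library 1 (adjusted p = 0.0694) or without any 1 of the N4 or T4 libraries (up to 0.0952), and that of Trbv4 without either N4 library or T4 library 2 (up to 0.0632). Their levels were low, between 0.222 and 0.951 CPM in N4 libraries.

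Trbv31, which lies in reverse orientation downstream of the beta constant regions, was measured in every library. It stood at 1.92 and 3.71 CPM in N4 libraries, 1.24 and 1.48 CPM in T4 libraries and 0.205 and 0.400 CPM in naive libraries. Its level rose in N4 against naive, by 3.22 on the log2 scale (SE 0.59, edgeR adjusted p = 0.0261), although not without naive library 1 (adjusted p = 0.0581), N4 library 2 or either T4 library (up to 0.0938). In T4 against naive its change was 2.17 (SE 0.57, edgeR adjusted p = 0.182). Trbv13-1 had 69 and 104 counts in N4 libraries, 433 and 222 in T4 libraries and 6 and 0 in naive libraries. With so few naive counts it too entered the test only through N4 and T4. Its call as higher in N4 (edgeR adjusted p = 0.0492) is therefore a description. The call was lost under scaling by library totals (adjusted p = 0.0856) and when any 1 of the N4 or T4 libraries was left out. The log2 change of Trbv13-1, 5.69 in the main fit, ran from 4.86 to 9.85 with a library left out.

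Other beta segments had patterns of their own. Trbv13-2 stood at 0.639 and 0.972 CPM in N4 libraries, 3.12 and 3.14 CPM in T4 libraries and 0.738 and 1.45 CPM in naive libraries, so T4 was above both other groups, with a log2 change of -1.96 in N4 against T4 (SE 0.51, edgeR adjusted p = 0.0654). Trbv17 had 303 and 192 counts in N4 libraries, 378 and 420 in T4 libraries and 0 and 21 in naive libraries. Trbv11, annotated as a pseudogene, overlapped between N4 and naive, at 1.46 and 2.09 CPM in N4 libraries, 0.882 and 1.24 CPM in T4 libraries and 0.897 and 1.94 CPM in naive libraries. Trbv12-2, the neighbour of Trbv12-1, stood at 2.34 and 2.96 CPM in N4 libraries, 2.90 and 3.57 CPM in T4 libraries and 1.51 and 2.46 CPM in naive libraries. Its change in N4 against naive was 0.42 (SE 0.40, edgeR adjusted p = 0.520). N4 overlapped both other groups, and T4 lay above naive.

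Trbv20 had its highest level in a naive library. It had 51 and 54 counts in N4 libraries, 81 and 111 in T4 libraries and 2450 and 0 in naive libraries. It thus made up 2450 of the 4219 beta counts outside Trbv12-1 in naive library 1, and with its naive libraries so far apart the change in N4 against naive was -3.50 with an SE of 2.27 (edgeR adjusted p = 0.338).

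**Figure D4:**
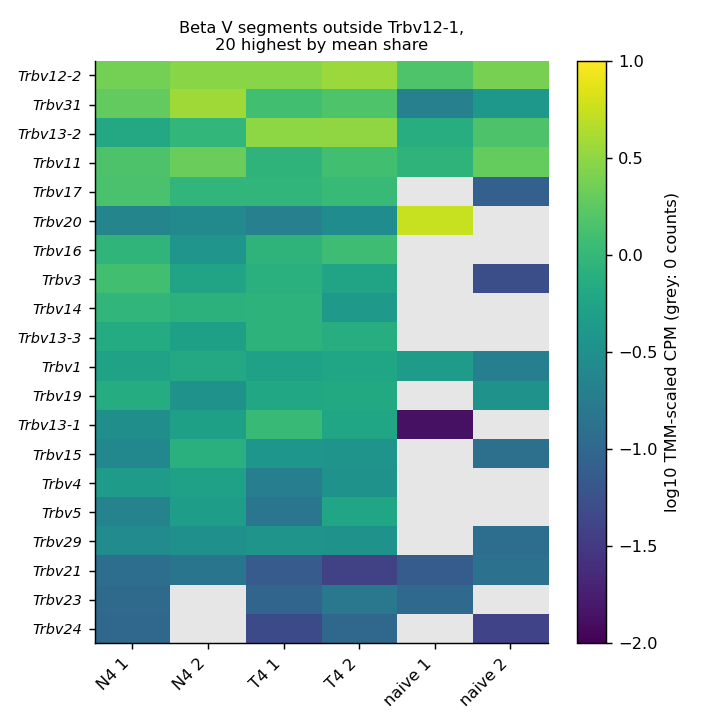
Level of the 20 beta V segments with the highest mean share outside Trbv12-1 in each library, as log10 of TMM-scaled CPM, with grey for 0 counts. Grey cells are mostly in the naive columns, where Trbv13-3, Trbv14, Trbv16, Trbv4 and Trbv5 are at 0 in both libraries, and Trbv20 is high in naive library 1 alone.

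Outside Trav14 the alpha locus was covered broadly in all groups. Of the 128 alpha segments, 94 and 93 were above 0 in N4 libraries, 105 and 108 in T4 libraries and 98 and 81 in naive libraries. The effective number of alpha segments outside Trav14 was 44.3 and 40.2 in N4 libraries, 52.3 and 52.1 in T4 libraries and 42.9 and 37.1 in naive libraries, so T4 was above both other groups, and N4 overlapped naive. Segments near the constant region took most of these counts. When the segments outside Trav14 were put into 4 bins by distance from Trac, the nearest 30, between 242.8 and 675.0 kb from it, took 60.3% and 55.9% of the counts in N4 libraries, 60.5% and 61.7% in T4 libraries and 58.4% and 67.0% in naive libraries. In this bin N4 lay below T4 without overlap, with a difference of -3.03 points (combined SD 3.24), and both overlapped naive. The farthest bin, with 29 segments, took 6.81% and 9.18% in N4 libraries, 7.96% and 6.79% in T4 libraries and 6.69% and 5.41% in naive libraries. Both stimulated groups lay above naive there, by 1.95 points in N4 (combined SD 1.904) and 1.325 points in T4 (combined SD 1.22), differences about as large as their spread.

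The alpha segments with the highest mean share outside Trav14 were Trav21-dv12, Trav3-3, Trav17, Trav6d-7, Trav6n-7 and Trav16. Trav21-dv12, which can also join to delta segments, stood at 2.74 and 3.81 CPM in N4 libraries, 2.22 and 2.37 CPM in T4 libraries and 1.54 and 2.30 CPM in naive libraries. Trav3-3 stood at 2.19 and 3.53 CPM in N4 libraries, 1.38 and 1.58 CPM in T4 libraries and 1.03 and 1.54 CPM in naive libraries. Neither passed the test in N4 against naive (edgeR adjusted p = 0.237 for Trav21-dv12 and 0.145 for Trav3-3). Trav17 ran from 1.28 to 2.39 CPM and Trav16 from 0.704 to 2.63 CPM over the 6 libraries, and for both N4 overlapped naive. The copies Trav6d-7 and Trav6n-7 had nearly equal counts in each library, 259 and 258 in N4 library 1, and their rows are therefore not separate measurements.

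Trav2, at the far end of the locus, was the alpha segment called higher in N4, and like the beta segments at 0 in naive cells it entered the test only through N4 and T4, so its call too is a description. It had 69 and 74 counts in N4 libraries, 26 and 48 in T4 libraries and 0 and 0 in naive libraries, at least 35.8-fold higher in N4 (edgeR adjusted p = 0.0311), and the call was lost without naive library 1 (adjusted p = 0.0618), without any 1 of the N4 or T4 libraries (up to 0.105) and with the replicate number as a block (0.0508). Trav1, Trav3-1 and Trav9n-2 were likewise at 0 in both naive libraries and above 0 in the 4 others, with 3 to 67 counts in N4 and T4 libraries, and were not called. Trav1 is the segment of the invariant chain of MAIT cells and Trav11 that of invariant NKT cells. Trav11 had 6 and 0 counts in N4 libraries, 57 and 58 in T4 libraries and 9 and 6 in naive libraries, and Zbtb16, the factor that defines both cell types, had 0 and 17, 0 and 0, and 74 and 0 counts.

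**Figure D5:**
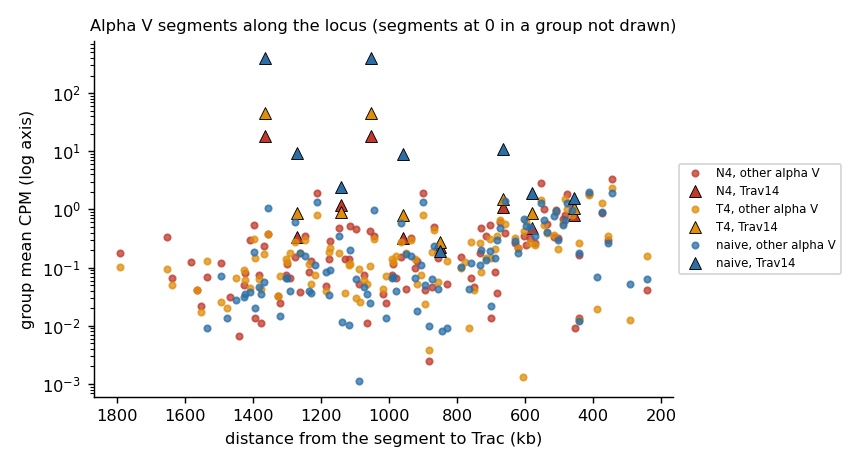
Group mean level of each alpha V segment, in TMM-scaled CPM on a log axis, against its distance to Trac in kilobases, with Trav14 family members as triangles and other segments as circles; segments at 0 in a group are not drawn. The twin copies Trav14d-1 and Trav14n-1 stand above all others in each group, in the order naive, T4, N4 from the top, and segments outside the family stay far below them.

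Gamma V segments were scarce in all groups. They summed to 1.19 and 2.701 CPM in N4 libraries, 2.44 and 2.05 CPM in T4 libraries and 4.64 and 11.3 CPM in naive libraries. Both stimulated groups lay below naive. N4 overlapped T4, except under scaling by library totals, where it was lower, at 0.974 and 1.73 CPM against 3.32 and 2.62 CPM. The level of Tcrg-V4 fell in N4, to 0.0498 and 0.0733 CPM, with 0.0693 and 0.124 CPM in T4, against 0.774 and 2.74 CPM in naive libraries. On the log2 scale it fell by 4.83 in N4 against naive (SE 0.93, edgeR adjusted p = 0.0288), a call that was lost without naive library 2 (adjusted p = 0.0769) or without either N4 library (up to 0.103). Trgv2 and Tcrg-V1, the most abundant by mean CPM, were not called, with changes of -0.75 and -3.74 in N4 against naive (edgeR adjusted p = 0.471 and 0.0573).

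Delta V segments did not follow the alpha and beta OT-I segments. They summed to 62.1 and 84.4 CPM in N4 libraries, 44.7 and 49.5 CPM in T4 libraries and 64.3 and 90.5 CPM in naive libraries. N4 overlapped naive, and T4 lay below both, except that under scaling by library totals N4, at 51.0 and 54.1 CPM, lay below T4, at 60.7 and 63.6 CPM, and T4 below naive, at 84.0 and 75.4 CPM. Trdv2-2 made up 78.6% and 84.6% of these counts in N4 libraries, 85.8% and 86.7% in T4 libraries and 87.7% and 88.9% in naive libraries. Against the delta constant region Trdc, delta V segments had 104 and 98.8 counts per 100 in N4 libraries, 46.4 and 50.6 in T4 libraries and 44.3 and 47.8 in naive libraries. The ratio was higher in N4 than in both other groups, the reverse of the alpha and beta ratios.

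Trdv2-1 was the V segment called in N4 against T4. It stood at 7.22 and 6.92 CPM in N4 libraries, 2.06 and 2.44 CPM in T4 libraries and 4.00 and 4.78 CPM in naive libraries. On this scale N4 was above naive and naive above T4, without overlap. In N4 against T4 it rose by 1.65 on the log2 scale (SE 0.30, edgeR adjusted p = 0.0338), but the call was lost under scaling by library totals, where the change was 0.80 (adjusted p = 0.187), and when any N4 or T4 library was left out (adjusted p up to 0.311). Trdv1 stood at 2.86 and 3.02 CPM in N4 libraries, 2.40 and 2.38 CPM in T4 libraries and 2.29 and 1.59 CPM in naive libraries, and was not called.

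As a sum, gamma delta T cell markers were highest in naive libraries. The 9 measured of 10 summed to 102 and 156 CPM in N4 libraries, 124 and 124 CPM in T4 libraries and 253 and 413 CPM in naive libraries, most of it Trdc and gamma constant regions. Outside the receptor, Cd163l1, a scavenger receptor gene of these cells, stood at 2.67 and 1.40 CPM in N4 libraries, 2.71 and 1.52 CPM in T4 libraries and 8.34 and 11.3 CPM in naive libraries, and fell in N4 against naive by 2.27 on the log2 scale (SE 0.49, edgeR adjusted p = 0.0369). It was thus lower in both stimulated groups than in naive, as the summed gamma V segments were. No other measured marker outside the receptor was lower in both without overlap. The kinase gene Blk was highest in T4. It stood at 0 in both N4 libraries, at 0.750 and 1.51 CPM in T4 libraries and at 0.346 and 0.268 CPM in naive libraries. Sox13 and Maf stood at or under 1.93 CPM in every library. Sox13 overlapped between T4 and naive, and Maf between N4 and naive. The part of gamma delta cells in the gamma and delta values was not tested.

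Of 19 other antigen receptor genes (constant regions, CD3 chains, coreceptors, recombination genes and the pre-receptor chain), 17 were tested. In N4 against naive 0 rose and 2 fell by edgeR's adjusted p, a share of 11.8%, close to the 12.1% of all tested genes. In T4 against naive and N4 against T4 there were 0 calls, where 0.117% and 7.96% of all tested genes were called. The genes that fell in N4 were Trdc, by 1.21 on the log2 scale (SE 0.28, edgeR adjusted p = 0.0458), and the gamma constant region Tcrg-C2, by 2.26 (SE 0.47, edgeR adjusted p = 0.0347). The median change of the 17 was -0.97 in N4 against naive, -0.71 in T4 against naive and 0.55 in N4 against T4, where that of all tested genes was -0.09, 0.00 and -0.20.

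The gamma constant regions were lower in N4 and T4 than in naive in every library. Tcrg-C4 stood at 20.7 and 28.1 CPM in N4 libraries, 9.19 and 10.4 CPM in T4 libraries and 33.4 and 92.1 CPM in naive libraries, and Tcrg-C1 at 13.8 and 30.5, 9.78 and 7.42, and 43.6 and 76.4 CPM. Cd3d, a signalling chain of the receptor complex, stood at 2147 and 3013 CPM in N4 libraries, 1367 and 1573 CPM in T4 libraries and 1888 and 2739 CPM in naive libraries. Cd3e, Cd3g, Cd247, Cd8a and Tcrg-C3 did not pass the test in any comparison. Cd8b1, the beta chain of the CD8 coreceptor, stood at 187 and 164 CPM in N4 libraries, 433 and 416 CPM in T4 libraries and 703 and 321 CPM in naive libraries, with a change of -1.54 in N4 against naive (SE 0.40, edgeR adjusted p = 0.0593).

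Genes that act while receptor genes are being joined were near 0 in most libraries. Rag1, a subunit of the recombinase, had 38 and 14 counts in N4 libraries, 40 and 18 in T4 libraries and 97 and 6 in naive libraries. Its partner Rag2 had 0 and 0 counts in N4 libraries, 0 and 3 in T4 libraries and 0 and 701 in naive libraries, so that it was above 3 counts in naive library 2 alone. Dntt, which adds bases at the joints, had 0 and 0 counts in N4 libraries, 0 and 85 in T4 libraries and 248 and 206 in naive libraries. Ptcra, the alpha chain of the pre-receptor, had 266 counts in T4 library 1 and 0 in every other library.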

How the data were processed

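Polyadenylated RNA was read in 6 libraries made with a SMARTer ultra-low input kit after miRNeasy extraction, per the labels' protocols. The authors deposited estimated counts per gene as whole numbers, not normalized, so no rounding was needed. The submitters' processing notes name DESeq2 1.30.1, R 4.0.5, StringTie 2.1.0, SAMtools 1.9, STAR 2.7.1a and the build mm39, without their roles. Not given in the sources used here are annotation release, strand setting and read length; totals are therefore not read numbers, and floors and intervals cover counting error only. Reads shared by near-identical segments or by overlapping genes on either strand cannot be assigned with certainty.

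Symbols were found for 52081 of 55414 identifiers (94%). Of the V rows, 170 matched as spelled and 6 as Tcrg-V. Coordinates, types and sequences come from GENCODE M21 on GRCm38, another build than the one named. edgeR 4.0.16 (TMM, filterByExpr, quasi-likelihood test over all 6 libraries, Benjamini-Hochberg over 23003 genes, threshold 0.05) was run in R 4.3.3 and tested on simulated data; DESeq2 1.42.0 was an alternative. The standard error is the log2 change over the square root of F. A fold against a group at 0 uses a floor of 3 counts per library. Shares and ratios were compared per library, with a combined SD (the root of the summed squared SDs) and an exact permutation test. Each library was counted as a replicate. The estimated counts of replicates differed by more than counting error (chi-square per degree of freedom of 118.4 or more). As these are not read numbers, that does not show that the libraries came from separate mice.

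The members and the gene lists were chosen with earlier results of these data known. Segments named are the Trav14 rows, Trbv12-1 and Trbv12-2, the 6 alpha and 6 beta segments of highest mean share outside these, the 3 gamma and 3 delta segments of highest mean CPM, those past the threshold, the listed receptor genes and the 3 top joining segments of each chain. Trav1, Trav3-1, Trav9n-2 and Trav11 were named after their values were seen or as markers. The alternatives were other scalings and filters, DESeq2, fits of fewer libraries and the replicate number as a block. Single values of 2 listed cell markers are not reported here.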

Additional observations from a re-analysis of the deposited data

How the results depend on the processing

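The direction of every Trav14 and Trbv12-1 share difference held under each alternative tried, as did that of the alpha and beta V totals. With a library left out, the Trav14 difference ran from -43.3 to -30.2 points for N4 against naive, -21.0 to -7.89 for T4 against naive and -25.7 to -18.9 for N4 against T4, and the alpha V total of N4 minus naive ran from -1492 to -121 CPM, the latter without naive library 2. The number of V segments called depended on the settings. For N4 against naive (15) it was 27 with DESeq2, 3 with the fit of only those groups, 20 with no filter, and 4 to 20 with a library left out (5 and 4 without N4 library 1 or 2, 8 and 5 without T4 library 1 or 2). For T4 against naive (0) it was 21 with DESeq2, 12 with no filter, and 0 to 7 with a library left out (7 and 6 without naive library 1 or 2). For N4 against T4 (1) it was 2 under library size scaling, 8 with DESeq2, 3 with no filter, 6 with only those groups, and 0 to 6 with a library left out (0 without any N4 or T4 library, 6 and 4 without naive library 1 or 2). The cause was not tested. Of the 16 single calls, DESeq2 kept 16, library size scaling 14, and leaving out a library 4 to 15, and none reversed. The delta V total of N4 minus T4 was -9.61 CPM under library size scaling. With a library left out, that of N4 minus naive ran from -17.3 to 8.98 CPM (6.998 without N4 library 1, 8.98 without naive library 2), and the gamma V total of N4 minus T4 ran from -1.06 to 0.459 CPM, the latter without N4 library 1. The replicate numbers are shared by the groups without any stated pairing. With the replicate block the counts were 15, 0 and 2 for N4 against naive, T4 against naive and N4 against T4, and same-numbered libraries deviated together across genes (correlations of 0.510, 0.325 and 0.419 for N4 and naive, T4 and naive, and N4 and T4). Beta segments outside Trbv12-1 had at most 6815 counts in a library, and a segment at 0 was not detectable at this depth, which does not show that it was absent. The part of depth in the number of segments seen was not tested.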
